A study of Mus musculus with 12 samples.

Results

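The 34 genes described here take glucose into the cell, break it down to pyruvate, exchange pyruvate with lactate, and admit pyruvate to the mitochondrion or hold it back. They were listed by symbol for what their products do, by a rule that used no expression value, although earlier results of these data were known when the list was made. Each gene was read from the brightest of its probe sets. Of the 34 genes 30 were measured, among 18194 genes in all. Gpi1, Eno1, Pfkfb1 and Mpc2 had no probe set assigned to them alone and were not analysed here. The measurements came from granule cell progenitors of the mouse cerebellum, the dividing precursors of granule neurons, which can give rise to medulloblastoma of the hedgehog type. The study asked how the lateral cerebellum and the midline respond to a strong hedgehog signal.

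All mice were 8 days old and of a mixed C57BL/6 and Swiss Webster background. SmoM2 mice carried Atoh1-CreER/+ and R26LSL-SmoM2-YFP, and received 200 µg tamoxifen per g at postnatal day 2. SmoM2 is an activated form of Smoothened, the membrane protein that passes on the hedgehog signal, and Cre driven by Atoh1 limits its expression to cells that used the Atoh1 gene when tamoxifen was given, and to their descendants. The mice they were set against are labelled wild type, and the labels do not say whether they were given tamoxifen. The 4 groups were SmoM2 hemisphere, SmoM2 vermis, wild type hemisphere and wild type vermis, with 3 arrays each, numbered as their labels number the replicates. Each array held RNA from cells of 5 pooled mice, isolated on a Percoll gradient, so the spread between arrays is a spread between pools.

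Glycolysis turns glucose into pyruvate with a small yield of ATP and supplies carbon for nucleotides, lipids and amino acids. Lactate dehydrogenase converts pyruvate to lactate, while the pyruvate dehydrogenase complex commits it to the citrate cycle, and the kinases of that complex shut the second route. Granule cell progenitors that divide under hedgehog signalling are known for a high rate of glycolysis with lactate release, in which hexokinase 2 takes part.

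Levels are given as deposited, on a log2 scale. They depend on the probes of each set, and levels of different genes are therefore not compared. Differences are SmoM2 minus wild type with the standard error of a linear model over all 12 arrays, and a gene is said to pass where its p from limma, adjusted for 18194 genes by the Benjamini-Hochberg method, was under 0.05. Array medians lay between 4.81 and 4.87. Wild type hemisphere array 3 stood apart in the bacterial spike bioB, at 7.42 (log2) against 8.76 to 9.66 on the other arrays. Counts without that array are given below. Another bacterial spike, dap, was lower on all 3 wild type hemisphere arrays, at 9.01 to 10.65. On the other arrays dap lay between 10.95 and 12.07. Whether this group difference bears on the gene values was not tested. Along the main axis of spread over all genes (first principal component, 56.2%), wild type array 1 lay at -14.1 in the hemisphere and -19.1 in the vermis. The other wild type arrays lay between -31.2 and -27.6, and the SmoM2 arrays between 22.9 and 26.9. Array 1 of both wild type regions was thus nearest to SmoM2 over all genes. Its part in the values of single genes was not tested. The hedgehog targets Gli1, Ptch1, Hhip and Ccnd1 all passed as higher in SmoM2 in both regions.

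Markers of the granule lineage and of other cells differed between the same groups. Of 9 measured granule lineage markers 1 passed as higher and 4 as lower in the SmoM2 hemisphere, and 1 and 3 in the SmoM2 vermis. Atoh1, the transcription factor of the progenitors, rose to means of 8.98 and 8.71 in SmoM2 hemisphere and vermis, against 8.16 and 7.85 in the wild type regions. Neurod1, a transcription factor of differentiating granule cells, fell to means of 12.13 and 12.19, against 12.98 and 13.01 in wild type. Pax6 and Cntn2 also fell in both regions, and Barhl1 fell in the hemisphere, a call that ended without wild type hemisphere array 3 (difference -0.61, adjusted p = 0.111) or any 1 SmoM2 hemisphere array (0.0574 to 0.108). Of 6 microglial markers 4 passed as lower in the hemisphere and 5 did so in the vermis. Their levels were also summed on the linear scale, where the brightest probe sets weigh most. The log2 of that sum was 8.36 to 9.13 over the SmoM2 arrays, against 9.54 to 9.78 over the wild type arrays. The microglial count for the vermis was 3 without wild type vermis array 1 or 2, SmoM2 vermis array 1 or SmoM2 hemisphere array 3, and 2 without wild type vermis array 3 or SmoM2 vermis array 2 or 3. Fewer cells of a type and less RNA per cell cannot be told apart in such pooled samples, and the part of these cells and of granule cell maturation in the values below was not tested.

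Members moved in both directions under SmoM2, and alternative forms of an enzyme passed on opposite sides in 3 pairs and among the pyruvate dehydrogenase kinases. Hk2, Pfkl, Ldha, Pdk2 and Pdk4 passed as higher in at least 1 region, and Hk1, Pfkm, Ldhb and Pdk1 as lower in both. Of these, Pfkl, Ldha and Pdk2 passed in 1 region only. Over 21 alternative settings the hemisphere calls of Pfkl and Pdk2 ended in 6 and 5, and the vermis call of Ldha in 10. Hk1 lost its hemisphere call in 7 of them and its vermis call in 5. Hk2 and Pdk4 kept theirs in all, and Pfkm, Ldhb and Pdk1 lost a call in 1 to 4. Members of the pairs Slc2a1 and Slc2a3, Aldoa and Aldoc, and Slc16a1 and Slc16a3 shared a sign, although the Slc2a1 vermis difference was only 0.02. In the hemisphere 15 of 30 members passed, 7 higher and 8 lower in SmoM2, where 7.62% of all genes passed as higher and 7.18% as lower. In the vermis 12 of 30 passed, 4 higher and 8 lower, against 7.56% and 9.46% of all genes. Hk2, Pgam1 and Pdk4 passed as higher in both regions, a class that held 5.27% of all genes, and Hk1, Pfkm, Tpi1, Ldhb, Slc16a1 and Pdk1 passed as lower in both, against 4.7% of all genes. The median difference over the members was -0.08 in the hemisphere and -0.07 in the vermis, beside -0.05 and -0.06 over all genes.

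Of the 18 members that passed in at least 1 region, all 18 had the same sign in both, as did 3898 of the 3976 genes (21.9% of all) that passed in at least 1 region. For Slc2a1 that sign is uncertain, since its vermis difference of 0.02 changed sign in 4 of 21 settings. Slc2a1, Slc2a3, Pfkl, Pdk2, Aldoc and Tigar passed in the hemisphere without passing in the vermis, and Ldha, Aldoa and Slc16a3 passed in the vermis without passing in the hemisphere. The 2 regions were not thereby shown to differ, since the difference between the SmoM2 effects passed for none of the 30 members. The count in the hemisphere was 10 of 30 (4 higher and 6 lower) without wild type hemisphere array 3, 9 without wild type hemisphere array 2, and 7 and 8 without SmoM2 hemisphere array 1 or 3. In the vermis it was 7 of 30 without wild type vermis array 2.

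**Figure D1:**
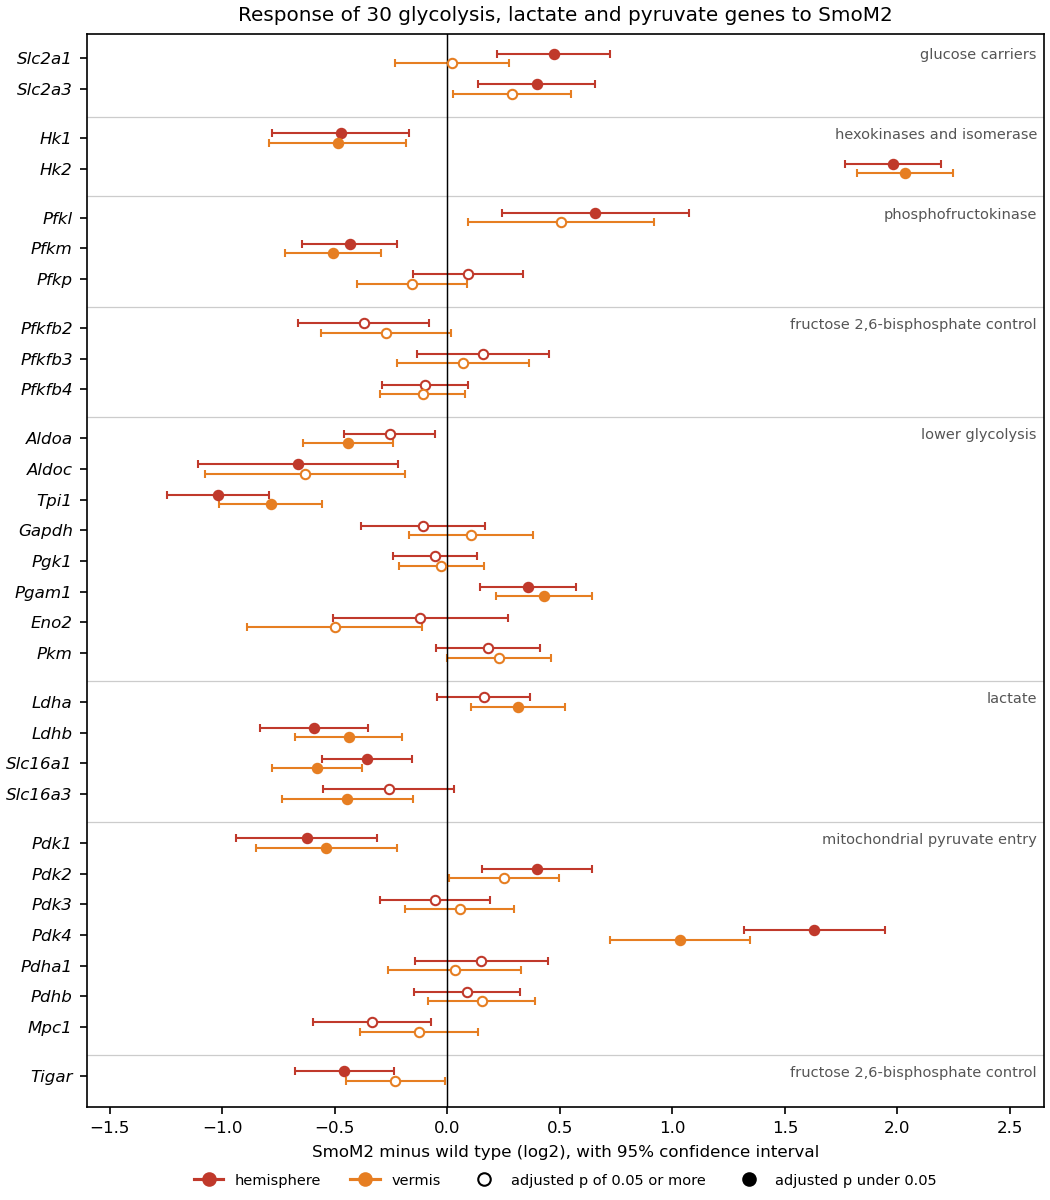
Difference of SmoM2 minus wild type (log2, horizontal axis) for the 30 measured members, by role, with 95% confidence intervals. Filled points passed at an adjusted p under 0.05. Hk2 and Pdk4 stand far to the right in both regions, at 1.98 and 1.63 (hemisphere) and 2.03 and 1.04 (vermis), and Tpi1 lies farthest to the left at -1.02 and -0.78.

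The 3 largest changes were those of Hk2, Pdk4 and Tpi1, and their promoters are shown with that of Ldha, a textbook target of hypoxia and of Myc, because glycolytic genes are known to share short control motifs. Each sequence runs 5′ to 3′ from 250 bases before to 50 bases after a transcript start (RefSeq, GRCm38.p6). Capitals mark the core of the hypoxia response element, ACGTG, or the E-box CACGTG bound by Myc and its relatives, which contains that core, on either strand. The windows are chr6:82774405-82774704 for Hk2, chr6:5496229-5496528 for Pdk4 and chr6:124814109-124814408 for Tpi1, all on the minus strand, and chr7:46845554-46845853 on the plus strand for Ldha. Ldha has 2 such windows, of which the one with motifs is shown. Its gene record begins further upstream, at position 46842274, whereas the single windows of the other 3 genes are set on the start of the gene.
Hk2: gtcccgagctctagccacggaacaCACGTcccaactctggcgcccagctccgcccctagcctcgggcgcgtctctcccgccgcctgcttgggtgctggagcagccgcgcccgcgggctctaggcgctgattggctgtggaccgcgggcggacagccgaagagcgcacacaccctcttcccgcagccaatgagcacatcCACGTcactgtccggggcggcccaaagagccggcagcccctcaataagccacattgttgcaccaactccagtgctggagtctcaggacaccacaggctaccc
Pdk4: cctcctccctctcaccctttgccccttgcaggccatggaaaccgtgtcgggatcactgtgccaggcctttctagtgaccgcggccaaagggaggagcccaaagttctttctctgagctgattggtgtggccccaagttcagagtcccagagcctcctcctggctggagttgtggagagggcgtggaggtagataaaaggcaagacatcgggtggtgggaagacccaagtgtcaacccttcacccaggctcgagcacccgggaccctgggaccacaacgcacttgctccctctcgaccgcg
Tpi1: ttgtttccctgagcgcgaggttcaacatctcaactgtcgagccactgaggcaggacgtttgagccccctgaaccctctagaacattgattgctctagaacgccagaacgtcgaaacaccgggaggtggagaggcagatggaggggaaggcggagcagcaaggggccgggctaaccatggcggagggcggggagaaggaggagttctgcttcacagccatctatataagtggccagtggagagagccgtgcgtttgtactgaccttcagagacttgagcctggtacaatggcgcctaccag
Ldha: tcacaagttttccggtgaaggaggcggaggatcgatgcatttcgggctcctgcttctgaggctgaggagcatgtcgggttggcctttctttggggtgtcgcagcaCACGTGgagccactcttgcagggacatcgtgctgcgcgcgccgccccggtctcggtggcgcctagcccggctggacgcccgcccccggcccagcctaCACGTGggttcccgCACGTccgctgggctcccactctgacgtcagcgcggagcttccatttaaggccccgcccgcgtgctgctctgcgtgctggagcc

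The Hk2 window held the hypoxia core at 2 places, starting 226 and 52 bases before the transcript start. The Ldha window shown held 2 E-boxes, at 145 and 48 bases before the start, and a further core at 34 bases, while the second Ldha window, chr7:46846832-46847131, held neither motif. The windows of Pdk4 and Tpi1, printed without capitals, held neither motif. Among the 29 measured members with a promoter window, 18 held the hypoxia core, as did 21.8% of 27025 genes, and 6 held the E-box, as did 8.09%. A gene with several windows was counted once if any of them held the motif, and counted by window the core was in 22 of 44 for the members and in 19.6% of 32851 overall. The core was present in 5 of 7 members that rose in at least 1 region, 6 of 10 that fell and 7 of 12 that passed in neither. The GLI binding sequence TGGGTGGTC was in no member's window and in 0.289% of genes. The core contains a CG pair, and the windows were not matched for base composition. Slc2a3 had no window to search.

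Both glucose carriers passed as higher in the SmoM2 hemisphere and neither passed in the vermis. Slc2a1 encodes GLUT1, the carrier of the blood-brain barrier and of many dividing cells. Log2 levels of Slc2a1 were 8.97, 8.84 and 8.96 in SmoM2 hemisphere, against 8.64, 8.29 and 8.41 in wild type hemisphere. Vermis levels of Slc2a1 were 8.92, 8.91 and 9.002 in SmoM2, against 8.85, 9.14 and 8.79 in wild type. The wild type hemisphere arrays were the lowest of the 12, and the other 3 groups overlapped. Slc2a1 rose by 0.47 ± 0.12 in the hemisphere (adjusted p = 0.0155), and the difference of 0.02 ± 0.12 in the vermis did not pass (adjusted p = 0.922). The other 2 Slc2a1 probe sets gave hemisphere differences of 0.48 and 0.34 and vermis differences of -0.02 and 0.01. The hemisphere call of Slc2a1 ended without wild type hemisphere array 2 (adjusted p = 0.0674) and without SmoM2 hemisphere array 1 or 3 (adjusted p = 0.0595 and 0.0578). Endothelial cells carry GLUT1, and the median difference of 6 endothelial markers was -0.04 in the hemisphere and -0.63 in the vermis. Their part in the Slc2a1 values was not tested.

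Slc2a3 encodes GLUT3, the main neuronal glucose carrier. Slc2a3 had log2 levels of 8.43, 8.56 and 8.71 in SmoM2 hemisphere, against 8.36, 8.16 and 8.000 in wild type hemisphere. Slc2a3 levels in the vermis were 8.58, 8.66 and 8.69 in SmoM2, against 8.56, 8.29 and 8.22 in wild type. SmoM2 arrays lay above wild type arrays in each region, by a narrow margin. Slc2a3 rose by 0.40 ± 0.12 in the hemisphere (adjusted p = 0.0429), and the difference of 0.29 ± 0.12 in the vermis did not pass (adjusted p = 0.12). The call of Slc2a3 in the hemisphere ended without wild type hemisphere array 2 or 3, wild type vermis array 2 or any 1 SmoM2 array (adjusted p from 0.0514 to 0.159), and with the mean of its 4 probe sets (difference 0.15, adjusted p = 0.239).

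The hexokinases, which trap glucose in the cell as glucose 6-phosphate, moved apart. Hk2, the inducible form known from tumours and dividing progenitors, showed the largest difference of any member. The arrays gave log2 levels for Hk2 of 11.25, 11.43 and 11.20 in SmoM2 hemisphere, against 9.35, 9.30 and 9.29 in wild type hemisphere. Hk2 in the vermis was at 10.96, 11.14 and 11.05 in SmoM2, against 9.08, 8.90 and 9.07 in wild type. Every SmoM2 array stood well above every wild type array. Hk2 rose by 1.98 ± 0.10 in the hemisphere (adjusted p = 1.73e-08) and by 2.03 ± 0.10 in the vermis (adjusted p = 1.94e-08). Those differences were 3.95-fold and 4.1-fold. Hk1 encodes the form that neurons and most other brain cells use. Hk1 measured, on the log2 scale, 7.28, 7.22 and 7.31 in SmoM2 hemisphere, against 7.51, 7.61 and 8.11 in wild type hemisphere. For vermis, Hk1 was at 7.28, 7.10 and 7.36 in SmoM2, against 7.62, 7.70 and 7.89 in wild type. Each region's SmoM2 arrays lay below its wild type arrays, and wild type hemisphere array 3 was the highest of all. Hk1 fell by 0.47 ± 0.14 in the hemisphere (adjusted p = 0.039) and by 0.49 ± 0.14 in the vermis (adjusted p = 0.0318).

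The Hk1 calls were close to the threshold. In the hemisphere Hk1 no longer passed without wild type hemisphere array 3 (difference -0.29, adjusted p = 0.129), any 1 SmoM2 hemisphere array (0.0838 to 0.101) or SmoM2 vermis array 1 (0.053). In the vermis it no longer passed without wild type vermis array 2 or 3 (0.0711 and 0.118) or SmoM2 vermis array 1 or 2 (0.0729 and 0.125). The mean of its 2 probe sets gave -0.35 for the hemisphere (adjusted p = 0.0904) and -0.33 for the vermis (0.0941).

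**Figure D2:**
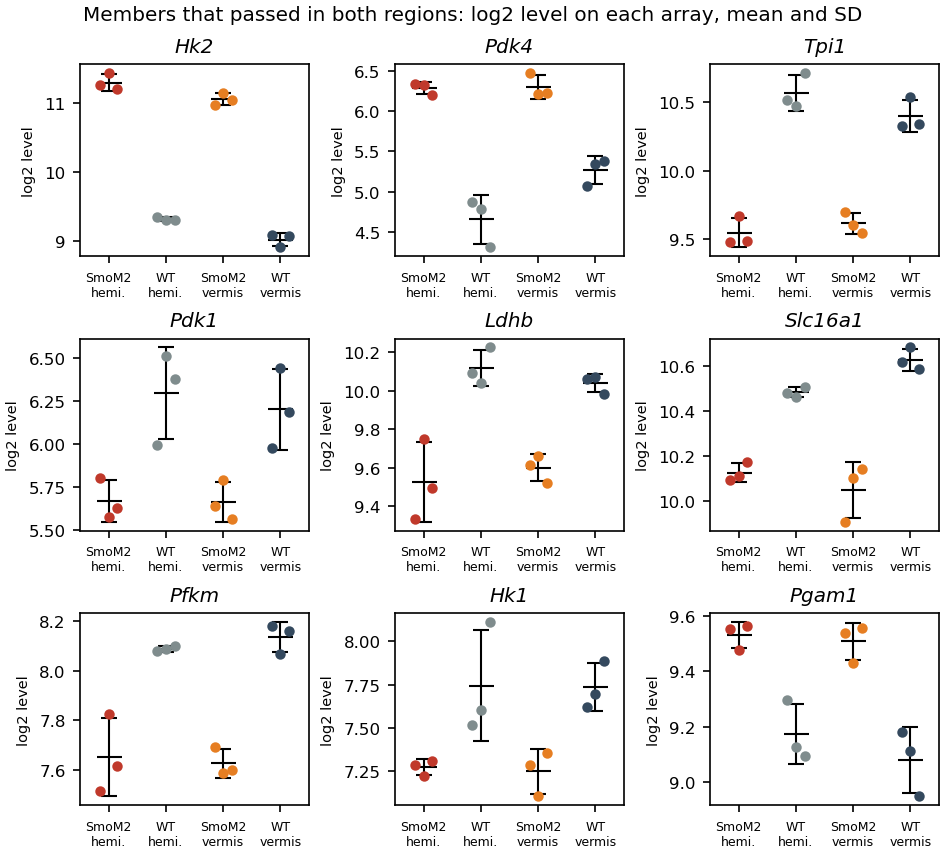
Log2 level (vertical axis, scaled for each gene) on each of the 12 arrays for the 9 members that passed in both regions, with the mean and SD of each group of 3. Hk2, Pdk4 and Pgam1 sit higher in SmoM2 in both regions, and the other 6 genes sit lower, with no overlap between SmoM2 and wild type arrays of a region.

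Phosphofructokinase makes the first step that commits sugar to glycolysis, and its 3 subunit genes each behaved differently. Pfkm encodes the muscle type subunit, which the brain also uses. Log2 levels of Pfkm were 7.52, 7.83 and 7.62 in SmoM2 hemisphere, against 8.08, 8.09 and 8.10 in wild type hemisphere. Vermis levels of Pfkm were 7.69, 7.59 and 7.60 in SmoM2, against 8.18, 8.07 and 8.16 in wild type. Its SmoM2 arrays were all below its wild type arrays. Pfkm fell by 0.43 ± 0.10 in the hemisphere (adjusted p = 0.00916) and by 0.51 ± 0.10 in the vermis (adjusted p = 0.0032). Without SmoM2 hemisphere array 1 the hemisphere p of Pfkm was 0.0519 after adjustment.

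Pfkl encodes the liver type subunit. Pfkl had log2 levels of 6.39, 6.27 and 6.22 in SmoM2 hemisphere, against 6.09, 5.47 and 5.35 in wild type hemisphere. Pfkl levels in the vermis were 6.34, 6.17 and 6.03 in SmoM2, against 6.09, 5.42 and 5.52 in wild type. The first wild type array of each region was close to the SmoM2 arrays, and the vermis groups overlapped. Pfkl rose by 0.66 ± 0.19 in the hemisphere (adjusted p = 0.0353), and the difference of 0.50 ± 0.19 in the vermis did not pass (adjusted p = 0.0869). The other 2 Pfkl probe sets gave no more than 0.08 for the hemisphere and 0.26 for the vermis, and the mean of all 3 gave 0.27 in the hemisphere (adjusted p = 0.114). The call of Pfkl in the hemisphere ended without wild type hemisphere array 2 or 3 (adjusted p = 0.121 and 0.131) or any 1 SmoM2 hemisphere array (0.0716 to 0.114), and in the vermis Pfkl passed without the first wild type array of either region (0.0322 for the hemisphere array and 0.0199 for the vermis array). Pfkp, the platelet type, differed by 0.09 ± 0.11 in the hemisphere and -0.16 ± 0.11 in the vermis (adjusted p = 0.612 and 0.356).

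Fructose 2,6-bisphosphate switches phosphofructokinase on, and the genes that make or remove it gave 1 call. Tigar encodes a phosphatase that removes it and turns sugar towards the pentose phosphate pathway. The arrays gave log2 levels for Tigar of 5.79, 6.03 and 5.84 in SmoM2 hemisphere, against 6.36, 6.40 and 6.27 in wild type hemisphere. Tigar in the vermis was at 5.93, 5.89 and 5.89 in SmoM2, against 6.10, 6.03 and 6.28 in wild type. All 3 SmoM2 hemisphere arrays were below the wild type ones, and the vermis groups were closer together without overlapping. Tigar fell by 0.46 ± 0.10 in the hemisphere (adjusted p = 0.00827), and the difference of -0.23 ± 0.10 in the vermis did not pass (adjusted p = 0.131). Its other 2 probe sets gave -0.39 and -0.43 in the hemisphere.

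Pfkfb2, which makes and degrades the same regulator, did not pass. Pfkfb2 measured, on the log2 scale, 6.49, 6.26 and 6.60 in SmoM2 hemisphere, against 6.57, 7.10 and 6.79 in wild type hemisphere. For vermis, Pfkfb2 was at 6.52, 6.58 and 6.48 in SmoM2, against 6.73, 6.71 and 6.96 in wild type. In the hemisphere a wild type array lay among the SmoM2 arrays. Differences of Pfkfb2 were -0.37 ± 0.14 for the hemisphere (adjusted p = 0.0789) and -0.27 ± 0.14 for the vermis (adjusted p = 0.175). It passed in the hemisphere in 2 of 21 settings, without wild type hemisphere array 1 (adjusted p = 0.0179) and after renewed quantile normalization (0.0401). Over those settings its hemisphere difference ran from -0.50 to -0.10, with an adjusted p of up to 0.482. Pfkfb3, the form usually linked to growing cells, differed by 0.16 ± 0.14 and 0.07 ± 0.14 in the hemisphere and the vermis, and Pfkfb4 by -0.10 ± 0.09 and -0.11 ± 0.09, with adjusted p between 0.407 and 0.752.

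The steps from fructose 1,6-bisphosphate to pyruvate held genes that fell, a gene that rose and genes near 0. Tpi1 encodes triose phosphate isomerase, which interconverts the triose phosphates made by aldolase. Log2 levels of Tpi1 were 9.48, 9.67 and 9.49 in SmoM2 hemisphere, against 10.51, 10.47 and 10.71 in wild type hemisphere. Vermis levels of Tpi1 were 9.70, 9.60 and 9.54 in SmoM2, against 10.33, 10.53 and 10.34 in wild type. SmoM2 and wild type arrays were far apart in both regions. Tpi1 fell by 1.02 ± 0.11 in the hemisphere (adjusted p = 1.66e-05) and by 0.78 ± 0.11 in the vermis (adjusted p = 0.000167). Both other Tpi1 probe sets passed as lower in both regions, with differences from -0.81 to -0.63. Tpi1 was 2.03-fold lower in the hemisphere and 1.72-fold lower in the vermis.

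Aldolase splits the hexose bisphosphate. Aldoa encodes the form found in most cells. Aldoa had log2 levels of 9.19, 9.20 and 9.07 in SmoM2 hemisphere, against 9.33, 9.36 and 9.54 in wild type hemisphere. Aldoa levels in the vermis were 9.10, 9.14 and 9.18 in SmoM2, against 9.55, 9.64 and 9.56 in wild type. SmoM2 arrays were below wild type arrays in both regions. Aldoa fell by 0.44 ± 0.09 in the vermis (adjusted p = 0.00571), and the difference of -0.26 ± 0.09 in the hemisphere did not pass (adjusted p = 0.0802). All 5 Aldoa probe sets lay below 0 in both regions, from -0.47 to -0.21, and all 5 sets are of a design whose probes can match other transcripts. After renewed quantile normalization Aldoa passed in the hemisphere as well (adjusted p = 0.0438).

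Aldoc encodes the brain form, abundant in astrocytes and in a subset of Purkinje cells. The arrays gave log2 levels for Aldoc of 7.94, 8.83 and 8.62 in SmoM2 hemisphere, against 9.28, 8.74 and 9.36 in wild type hemisphere. Aldoc in the vermis was at 9.05, 8.66 and 8.87 in SmoM2, against 9.44, 9.40 and 9.66 in wild type. SmoM2 hemisphere array 1 was the lowest, and wild type hemisphere array 2 fell within the SmoM2 range. Aldoc fell by 0.66 ± 0.21 in the hemisphere (adjusted p = 0.046), and the difference of -0.63 ± 0.21 in the vermis did not pass (adjusted p = 0.0511). The hemisphere call of Aldoc ended without any 1 array apart from array 2 of SmoM2 hemisphere and array 2 of wild type hemisphere (adjusted p from 0.0516 to 0.191), whereas in the vermis Aldoc passed without any 1 hemisphere array other than SmoM2 array 3 (0.0205 to 0.0472). The hemisphere difference was -0.40 without SmoM2 hemisphere array 1 and -0.43 with the mean of its 2 probe sets (adjusted p = 0.191 and 0.0977). Of 10 astroglial markers 3 passed as higher and 2 as lower in the SmoM2 hemisphere, and 4 as higher and 2 as lower in the vermis. The vermis count of 6 was 3 without wild type vermis array 1 or SmoM2 vermis array 2 or 3, and 2 without wild type vermis array 3. The log2 of the summed astroglial levels was 13.16 to 13.69 over the SmoM2 arrays, against 13.54 to 13.86 over the wild type arrays. Gfap averaged 5.60 to 6.19 in the 4 groups. Sox9 averaged 8.40 and 8.44 in SmoM2 hemisphere and vermis, against 7.35 and 7.51 in wild type. Aqp4 averaged 10.29 and 10.33, against 11.14 and 11.17. Of 5 measured Purkinje cell markers 1 passed as higher and 1 as lower in each region, with medians of -0.18 and -0.56. Their count of 2 ran from 1 to 4 over other settings in each region. The part of astroglia and Purkinje cells in the Aldoc values was not tested.

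Pgam1 encodes phosphoglycerate mutase, which moves the phosphate group before enolase acts. Pgam1 measured, on the log2 scale, 9.56, 9.48 and 9.56 in SmoM2 hemisphere, against 9.30, 9.13 and 9.10 in wild type hemisphere. For vermis, Pgam1 was at 9.54, 9.43 and 9.56 in SmoM2, against 9.18, 9.11 and 8.95 in wild type. The SmoM2 arrays were all above the wild type arrays. Pgam1 rose by 0.36 ± 0.10 in the hemisphere (adjusted p = 0.0266) and by 0.43 ± 0.10 in the vermis (adjusted p = 0.00971). Pgam1 lost its hemisphere call without wild type hemisphere array 2 or 3 (adjusted p = 0.0789 and 0.0755) or SmoM2 hemisphere array 1 or 3 (0.0843 and 0.0872).

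The neighbouring steps gave no call. Gapdh, glyceraldehyde 3-phosphate dehydrogenase, was represented here by the array's own control set for the 5′ end of its transcript. Log2 levels of Gapdh were 12.14, 12.32 and 12.27 in SmoM2 hemisphere, against 12.15, 12.22 and 12.68 in wild type hemisphere. Vermis levels of Gapdh were 12.14, 12.34 and 12.32 in SmoM2, against 12.15, 12.17 and 12.16 in wild type. The groups overlapped, with wild type hemisphere array 3 highest. Differences of Gapdh were -0.11 ± 0.13 for the hemisphere (adjusted p = 0.592) and 0.11 ± 0.13 for the vermis (adjusted p = 0.587). The 3′ control set read 12.29, 12.29 and 12.21 in SmoM2 hemisphere, against 12.09, 12.12 and 12.44 in wild type hemisphere. The middle set read 11.87, 11.98 and 11.91 in SmoM2 hemisphere, against 11.77, 11.88 and 12.29 in wild type hemisphere. The sign of the hemisphere difference thus depended on the set and on wild type hemisphere array 3. Pgk1 encodes phosphoglycerate kinase, the first ATP-yielding step. Pgk1 had log2 levels of 10.33, 10.37 and 10.35 in SmoM2 hemisphere, against 10.38, 10.45 and 10.39 in wild type hemisphere. Pgk1 levels in the vermis were 10.39, 10.44 and 10.32 in SmoM2, against 10.36, 10.49 and 10.39 in wild type. Its 12 values spanned a narrow range. Differences of Pgk1 were -0.06 ± 0.09 for the hemisphere (adjusted p = 0.695) and -0.03 ± 0.09 for the vermis (adjusted p = 0.853).

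Pkm encodes the pyruvate kinase of brain and tumours, and the array does not part its splice forms. The arrays gave log2 levels for Pkm of 9.97, 9.84 and 9.69 in SmoM2 hemisphere, against 9.62, 9.50 and 9.83 in wild type hemisphere. Pkm in the vermis was at 9.81, 9.78 and 9.73 in SmoM2, against 9.58, 9.54 and 9.51 in wild type. The hemisphere groups overlapped, and in the vermis each SmoM2 array was above each wild type array. Differences of Pkm were 0.18 ± 0.11 for the hemisphere (adjusted p = 0.269) and 0.23 ± 0.11 for the vermis (adjusted p = 0.152). Eno2, the neuronal enolase, lay near the lower end of the array scale, at means of 3.02 and 3.13 in SmoM2 hemisphere and vermis, against 3.14 and 3.63 in the wild type regions, and its adjusted p was 0.682 in the hemisphere and 0.0711 in the vermis. In the vermis Eno2 passed without wild type hemisphere array 2 (adjusted p = 0.0352).

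**Figure D3:**
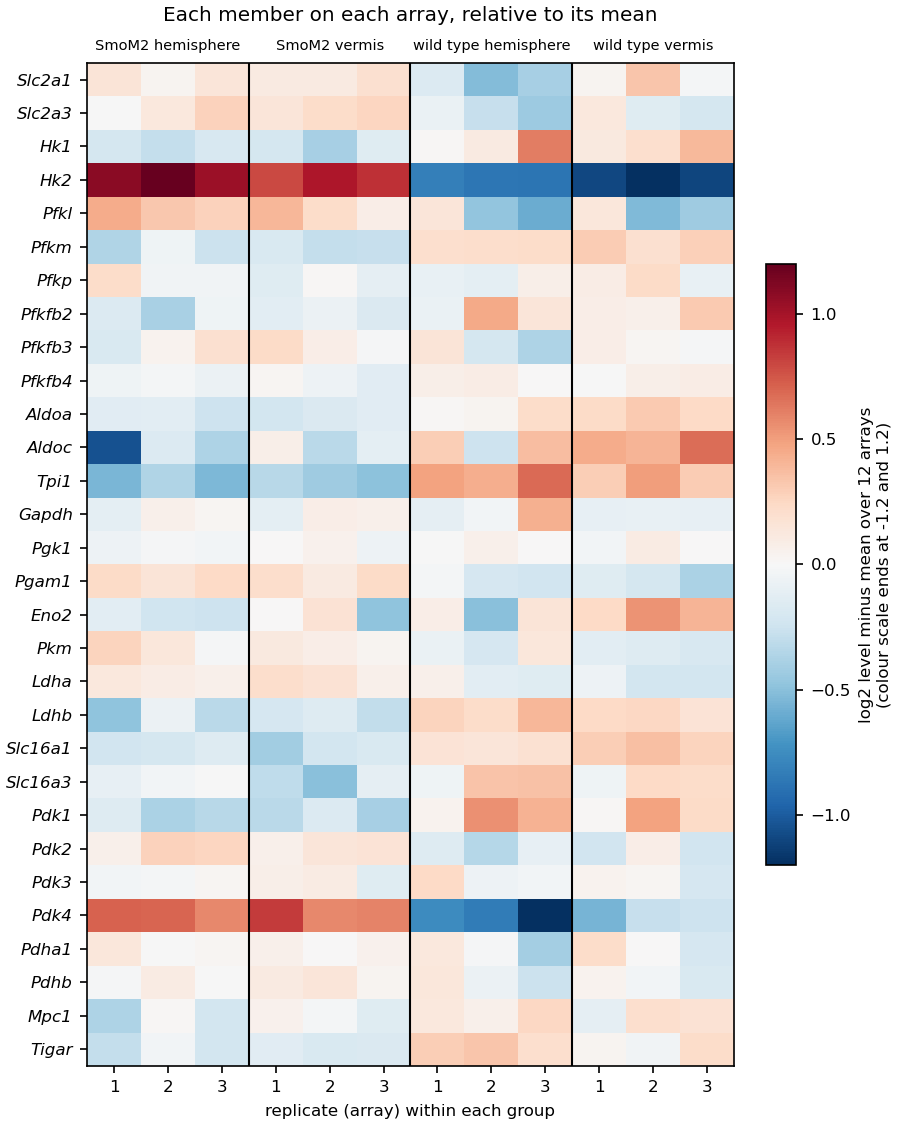
Log2 level of each measured member (rows, in pathway order) on each array (columns), minus the member's mean over the 12 arrays. The colour scale ends at -1.2 and 1.2. Hk2 and Pdk4 are red on all 6 SmoM2 arrays and blue on all 6 wild type arrays, Tpi1 and Ldhb show the reverse, and Pgk1 is near 0 throughout.

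The lactate genes split between the 2 subunits of lactate dehydrogenase. Ldhb encodes the heart type subunit, which favours the use of lactate. Ldhb measured, on the log2 scale, 9.34, 9.75 and 9.50 in SmoM2 hemisphere, against 10.09, 10.04 and 10.22 in wild type hemisphere. For vermis, Ldhb was at 9.62, 9.66 and 9.52 in SmoM2, against 10.06, 10.07 and 9.98 in wild type. Both regions had SmoM2 arrays below all wild type arrays. Ldhb fell by 0.59 ± 0.11 in the hemisphere (adjusted p = 0.00254) and by 0.44 ± 0.11 in the vermis (adjusted p = 0.0162). All 4 Ldhb probe sets passed as lower in both regions, with differences from -0.69 to -0.37. The set whose levels are given is, like that of Aldoa, of a design whose probes can match other transcripts. Without wild type vermis array 2 or SmoM2 vermis array 3 the vermis values of Ldhb did not pass (adjusted p = 0.0552 and 0.0587).

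Ldha encodes the muscle type subunit, which favours lactate formation. Log2 levels of Ldha were 10.17, 10.14 and 10.11 in SmoM2 hemisphere, against 10.11, 9.92 and 9.90 in wild type hemisphere. Vermis levels of Ldha were 10.26, 10.22 and 10.11 in SmoM2, against 9.99, 9.83 and 9.83 in wild type. The vermis groups were apart by a small margin, and in the hemisphere the first wild type array reached the SmoM2 range. Ldha rose by 0.31 ± 0.10 in the vermis (adjusted p = 0.0408), and the difference of 0.16 ± 0.10 in the hemisphere did not pass (adjusted p = 0.277). The vermis call of Ldha ended without wild type vermis array 2 or 3 (adjusted p = 0.123 and 0.124), any 1 SmoM2 hemisphere array (0.0522 to 0.0575) or any 1 SmoM2 vermis array (0.0546 to 0.135).

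Lactate leaves and enters cells through monocarboxylate carriers. Slc16a1 encodes MCT1, which brain endothelium and oligodendrocytes also carry. Slc16a1 had log2 levels of 10.09, 10.11 and 10.17 in SmoM2 hemisphere, against 10.48, 10.46 and 10.51 in wild type hemisphere. Slc16a1 levels in the vermis were 9.91, 10.10 and 10.14 in SmoM2, against 10.62, 10.68 and 10.59 in wild type. No SmoM2 array reached the wild type range. Slc16a1 fell by 0.36 ± 0.09 in the hemisphere (adjusted p = 0.0189) and by 0.58 ± 0.09 in the vermis (adjusted p = 0.000702). The call of Slc16a1 in the hemisphere ended without SmoM2 hemisphere array 1 or 2 (adjusted p = 0.0696 and 0.0528) and with the mean of its 2 probe sets (difference -0.16, adjusted p = 0.251). The dimmer set, at a mean level of 3.45, gave 0.03 in the hemisphere and -0.34 in the vermis. All 6 measured oligodendrocyte markers passed as lower in both regions. The log2 of their summed levels was 11.51 to 12.12 in SmoM2 hemisphere and 11.68 to 12.31 in SmoM2 vermis. In wild type it was 13.08 to 13.28 in the hemisphere and 13.43 to 13.94 in the vermis. Of 6 endothelial markers 0 passed in the hemisphere and 3 passed as lower in the vermis by limma. The vermis count was 0 without wild type vermis array 2 or 3 or SmoM2 vermis array 1, 1 without SmoM2 vermis array 2 or any 1 SmoM2 hemisphere array, and 5 without wild type hemisphere array 1 or 3. The log2 of the summed endothelial levels was 9.47 to 9.72 in SmoM2 hemisphere and 8.72 to 9.35 in SmoM2 vermis. In wild type it was 9.23 to 10.27 in the hemisphere and 9.65 to 10.03 in the vermis. The part of these cells in the Slc16a1 values was not tested.

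Slc16a3 encodes MCT4, a carrier suited to lactate export. The arrays gave log2 levels for Slc16a3 of 3.04, 3.11 and 3.14 in SmoM2 hemisphere, against 3.09, 3.48 and 3.49 in wild type hemisphere. Slc16a3 in the vermis was at 2.83, 2.63 and 3.03 in SmoM2, against 3.09, 3.38 and 3.36 in wild type. All 12 values lay close to the lower quartile of the arrays (3.24 to 3.42), where differences are compressed. Slc16a3 fell by 0.45 ± 0.14 in the vermis (adjusted p = 0.0378), and the difference of -0.26 ± 0.14 in the hemisphere did not pass (adjusted p = 0.207). The vermis call of Slc16a3 ended without wild type vermis array 2 or 3 (adjusted p = 0.127 and 0.118), SmoM2 vermis array 1 or 2 (0.0958 and 0.157) or SmoM2 hemisphere array 3 (0.0516). In the hemisphere it passed without wild type hemisphere array 1 (0.0436).

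Entry of pyruvate into the citrate cycle is held back by 4 pyruvate dehydrogenase kinases, and these gave 2 members that rose, 1 that fell and 1 that did not pass. Pdk4 encodes the kinase that fasting and fatty acids induce in muscle and heart. Pdk4 measured, on the log2 scale, 6.34, 6.33 and 6.20 in SmoM2 hemisphere, against 4.88, 4.79 and 4.31 in wild type hemisphere. For vermis, Pdk4 was at 6.47, 6.21 and 6.23 in SmoM2, against 5.07, 5.35 and 5.38 in wild type. The SmoM2 arrays of both regions shared 1 range, above all wild type arrays. Pdk4 rose by 1.63 ± 0.15 in the hemisphere (adjusted p = 3.67e-06) and by 1.04 ± 0.15 in the vermis (adjusted p = 0.000228). Those differences were 3.1-fold and 2.05-fold.

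Pdk1 encodes a kinase induced by hypoxia. Log2 levels of Pdk1 were 5.80, 5.57 and 5.63 in SmoM2 hemisphere, against 5.99, 6.51 and 6.38 in wild type hemisphere. Vermis levels of Pdk1 were 5.64, 5.79 and 5.56 in SmoM2, against 5.97, 6.44 and 6.18 in wild type. SmoM2 arrays were below wild type arrays in both regions, narrowly so for the first wild type arrays. Pdk1 fell by 0.62 ± 0.15 in the hemisphere (adjusted p = 0.0107) and by 0.54 ± 0.15 in the vermis (adjusted p = 0.0224). Of 4 Pdk1 probe sets 3 passed as lower in both regions, from -1.10 to -0.54. The hemisphere call of Pdk1 ended without wild type hemisphere array 2 (adjusted p = 0.0526), and the vermis call ended without wild type vermis array 2 or 3 (0.101 and 0.0578) or SmoM2 vermis array 1 or 3 (0.0705 and 0.0735).

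Pdk2 encodes the most widely expressed of these kinases. Pdk2 had log2 levels of 4.96, 5.17 and 5.15 in SmoM2 hemisphere, against 4.74, 4.55 and 4.79 in wild type hemisphere. Pdk2 levels in the vermis were 4.95, 5.03 and 5.06 in SmoM2, against 4.66, 4.97 and 4.66 in wild type. In the hemisphere the groups were apart, and in the vermis the second wild type array lay within the SmoM2 range. Pdk2 rose by 0.40 ± 0.11 in the hemisphere (adjusted p = 0.0309), and the difference of 0.25 ± 0.11 in the vermis did not pass (adjusted p = 0.14). Pdk2 lost its hemisphere call without wild type hemisphere array 2 (adjusted p = 0.115) or SmoM2 hemisphere array 2 or 3 (0.0957 and 0.102). Pdk3 did not pass. The arrays gave log2 levels for Pdk3 of 7.34, 7.35 and 7.39 in SmoM2 hemisphere, against 7.60, 7.30 and 7.33 in wild type hemisphere. Pdk3 in the vermis was at 7.44, 7.47 and 7.22 in SmoM2, against 7.41, 7.39 and 7.16 in wild type. Its groups overlapped in both regions. Differences of Pdk3 were -0.05 ± 0.11 for the hemisphere (adjusted p = 0.776) and 0.05 ± 0.11 for the vermis (adjusted p = 0.761).

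The enzyme that these kinases control and the carrier that feeds it gave no call. Pdha1 and Pdhb encode the subunits of pyruvate dehydrogenase proper. Pdha1 measured, on the log2 scale, 10.04, 9.89 and 9.92 in SmoM2 hemisphere, against 10.03, 9.88 and 9.49 in wild type hemisphere. For vermis, Pdha1 was at 9.96, 9.91 and 9.95 in SmoM2, against 10.12, 9.90 and 9.69 in wild type. The groups overlapped, and the third wild type array was the lowest in each region. Differences of Pdha1 were 0.15 ± 0.14 for the hemisphere (adjusted p = 0.483) and 0.03 ± 0.14 for the vermis (adjusted p = 0.887). The partner subunit gene was as even. Log2 levels of Pdhb were 9.90, 10.01 and 9.91 in SmoM2 hemisphere, against 10.05, 9.85 and 9.66 in wild type hemisphere. Vermis levels of Pdhb were 10.03, 10.06 and 9.95 in SmoM2, against 9.96, 9.89 and 9.74 in wild type. In both regions SmoM2 and wild type arrays overlapped. Differences of Pdhb were 0.09 ± 0.11 for the hemisphere (adjusted p = 0.62) and 0.15 ± 0.11 for the vermis (adjusted p = 0.353). Mpc1 encodes a subunit of the mitochondrial pyruvate carrier. Mpc1 had log2 levels of 9.78, 10.16 and 9.93 in SmoM2 hemisphere, against 10.27, 10.20 and 10.39 in wild type hemisphere. Mpc1 levels in the vermis were 10.20, 10.12 and 9.997 in SmoM2, against 10.03, 10.34 and 10.32 in wild type. SmoM2 hemisphere arrays lay below the wild type ones, and the vermis groups overlapped. Differences of Mpc1 were -0.33 ± 0.12 for the hemisphere (adjusted p = 0.0807) and -0.13 ± 0.12 for the vermis (adjusted p = 0.491). In the hemisphere Mpc1 passed without SmoM2 hemisphere array 2 (adjusted p = 0.0434) and under trended moderation (0.0373).

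Hemisphere and vermis were next compared within each genotype. No member passed in SmoM2 progenitors or in wild type progenitors by limma. Among all genes 0.0165% passed as higher and 0.044% as lower in the SmoM2 hemisphere against the SmoM2 vermis, and 0.0385% and 0.148% in the same comparison of wild type. At an unadjusted p under 0.05 there were 1 member in SmoM2, Hk2, and 4 members in wild type, Slc2a1, Hk2, Eno2 and Pdk4. Among all 18194 genes 661 reached that level in SmoM2 and 1149 in wild type. Hk2 was higher in the hemisphere than in the vermis by 0.24 ± 0.10 in SmoM2 and 0.30 ± 0.10 in wild type (adjusted p = 1 and 0.476), without overlap between the regions in either genotype.

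In wild type progenitors Pdk4 differed by -0.61 ± 0.15 and Slc2a1 by -0.47 ± 0.12, hemisphere minus vermis, with no overlap between the regions (adjusted p = 0.163 and 0.175). In SmoM2 progenitors the same differences were -0.01 ± 0.15 and -0.02 ± 0.12. With the replicate number within a genotype as a random block both genes passed as lower in the wild type hemisphere (adjusted p = 0.0372 and 0.043), and with it as a fixed block neither did (0.133 and 0.148). All 6 endothelial markers were lower in the wild type hemisphere than in the wild type vermis, with a median difference of -0.21, and 0 passed by limma or at an unadjusted p under 0.05. Of the 6 oligodendrocyte markers, all lower as well with a median of -0.61, 5 had an unadjusted p under 0.05 and 0 passed. The part of these cells, or of the lower dap spike on the wild type hemisphere arrays, in the Slc2a1 and Pdk4 values was not tested.

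**Figure D4:**
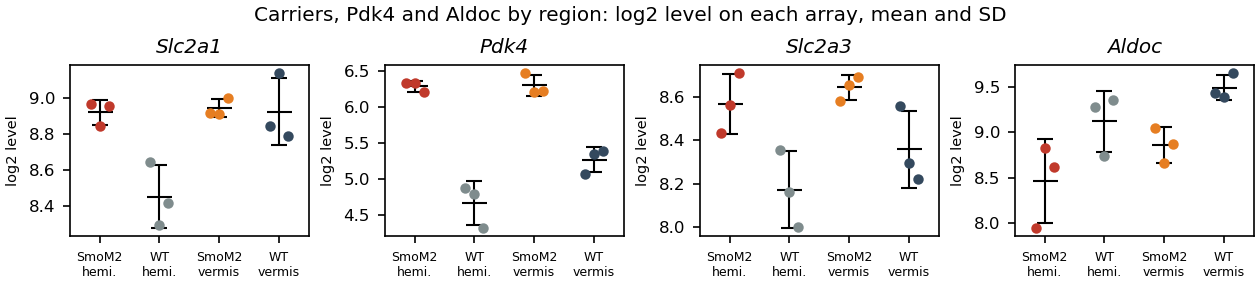
Log2 level (vertical axis, scaled for each gene) on each array, with the mean and SD of each group of 3, for Slc2a1, Pdk4, Slc2a3 and Aldoc. The wild type hemisphere arrays of Slc2a1 and Pdk4 lie below those of the 3 other groups, with means of 8.45 and 4.66.

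Whether SmoM2 acted differently in the 2 regions was tested as the SmoM2 effect in the hemisphere minus that in the vermis. No member and no gene passed, 0% of all genes in either direction, and 564 of 18194 genes had an unadjusted p under 0.05. At an unadjusted p under 0.05 there were 2 members, Pdk4 with 0.60 ± 0.21 and Slc2a1 with 0.45 ± 0.17 (adjusted p = 1 for both by limma, or 0.52 and 0.524 with the replicate number within a genotype as a random block). In the same comparison all 6 endothelial markers were above 0, with a median of 0.67 and 2 at an unadjusted p under 0.05, and so were all 6 oligodendrocyte markers, with a median of 0.43 and 0 at that level. None of these markers passed, and their part in the Slc2a1 and Pdk4 values was not tested. For Hk2 the SmoM2 effects of the regions differed by -0.05 ± 0.14 (95% confidence interval -0.35 to 0.25), and for Tpi1 by -0.23 ± 0.15 (-0.56 to 0.09).

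Genes around the pathway were read from lists by pathway. Among all 18194 genes 7.62% passed as higher and 7.18% as lower for the hemisphere. The vermis shares were 7.56% and 9.46%. Of 21 other measured genes of glycolysis and gluconeogenesis 2 passed as higher and 4 as lower in the hemisphere, with a median of -0.16, while the vermis had 2 higher and 3 lower, with a median of -0.11. Pcx encodes pyruvate carboxylase, which feeds pyruvate into the citrate cycle as oxaloacetate, and rose by 1.33 ± 0.17 in the hemisphere and 1.39 ± 0.17 in the vermis (adjusted p = 8.67e-05 and 5.53e-05). A phosphoglucomutase, named Pgm1 in the platform annotation, fell by 1.77 ± 0.13 and 1.53 ± 0.13 (adjusted p = 6.63e-07 and 2.62e-06). Both kept their calls in both regions in all 21 settings run, with smaller differences for the mean of all their probe sets, at 0.67 and 0.73 for Pcx and -0.99 and -0.97 for Pgm1.

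The serine and glycine branch leaves glycolysis at 3-phosphoglycerate, and its list here included folate enzymes that use the carbon of serine. Of the 7 genes listed 4 passed as higher in each region and 0 as lower, with medians of 0.48 and 0.42. All 7 differences were above 0, but Phgdh, whose enzyme acts on 3-phosphoglycerate, passed in neither region. Psat1, the transaminase of that branch, rose by 0.63 ± 0.09 and 0.70 ± 0.09 (adjusted p = 0.000321 and 0.000125). Shmt2, which passes the carbon of serine to folate in mitochondria, rose by 0.67 ± 0.13 and 0.62 ± 0.13 (adjusted p = 0.00314 and 0.00547). Both kept their calls in all 21 settings run. The remaining calls were Mthfd1 and Mthfd2. Mthfd1 no longer passed in the hemisphere without wild type hemisphere array 2 or 3 or any 1 SmoM2 hemisphere array (adjusted p from 0.0675 to 0.112), nor in the vermis without the second wild type array of either region, wild type vermis array 3 or any 1 SmoM2 array (0.057 to 0.185). Mthfd2 no longer passed in the hemisphere without wild type hemisphere array 2 or 3 or SmoM2 hemisphere array 1 or 3 (0.0625 to 0.116). Of 15 citrate cycle genes 0 passed by limma in either region, with 3 in the hemisphere and 2 in the vermis at an unadjusted p under 0.05, and up to 4 and 2 passed in other settings.

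Of 18 hypoxia response genes outside the pathway 1 passed as lower in the hemisphere, Ddit4, and in the vermis Vegfa passed as higher and Bnip3 as lower. The Ddit4 call ended without wild type hemisphere array 2 or SmoM2 hemisphere array 2 (adjusted p = 0.0776 and 0.0868). Without wild type vermis array 2, SmoM2 vermis array 1 or SmoM2 vermis array 3, neither Vegfa (0.0717, 0.122 and 0.0892) nor Bnip3 (0.0649, 0.0506 and 0.0716) passed, and Vegfa did not pass without wild type vermis array 1 (0.097) or with the mean of its probe sets (difference 0.15, adjusted p = 0.321). Among 17 regulators of metabolism 4 passed as higher in each region, Myc, Txnip, Prkaa1 and Ptbp1, and 0 as lower. Myc, a transcription factor that drives many glycolytic genes in other tissues, rose by 1.71 ± 0.12 in the hemisphere and 1.56 ± 0.12 in the vermis (adjusted p = 6.04e-07 and 1.27e-06). Prkaa1, a subunit gene of the energy sensor AMPK, no longer passed in the hemisphere without wild type hemisphere array 3 or SmoM2 hemisphere array 1 or 3 (0.0501, 0.0513 and 0.0643), nor in the vermis without SmoM2 vermis array 1 (0.0543). Ptbp1, a splicing regulator of Pkm, lost both calls with the mean of its probe sets, at 0.14 for the hemisphere (adjusted p = 0.3) and 0.15 for the vermis (0.249).

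In the remaining lists 2 of 16 sugar and monocarboxylate carriers passed in the hemisphere and 3 in the vermis, 1 of 8 other genes of the pyruvate dehydrogenase complex in the hemisphere with 0 for the vermis, 2 and 1 of 7 genes of the pentose phosphate pathway, and 0 of 6 glycogen genes in either region. At an unadjusted p under 0.05 there were 6 and 8 carriers in the hemisphere and the vermis, and 5 and 4 genes of the pentose phosphate pathway. The pyruvate dehydrogenase list had 1 and 2 genes at that level, and the glycogen list 2 and 1. Of the 16 carriers 13 lay below 0 in each region, with medians of -0.20 and -0.28. Over the settings the carrier counts ran from 0 to 5 in the hemisphere and from 0 to 4 in the vermis. The pentose phosphate counts ran from 1 to 3 and from 0 to 2. The pyruvate dehydrogenase call was Dlat, at an adjusted p of 0.0498 by limma, and it ended in 14 of 21 settings. No list count was tested against the shares of all genes given above.

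**Figure D5:**
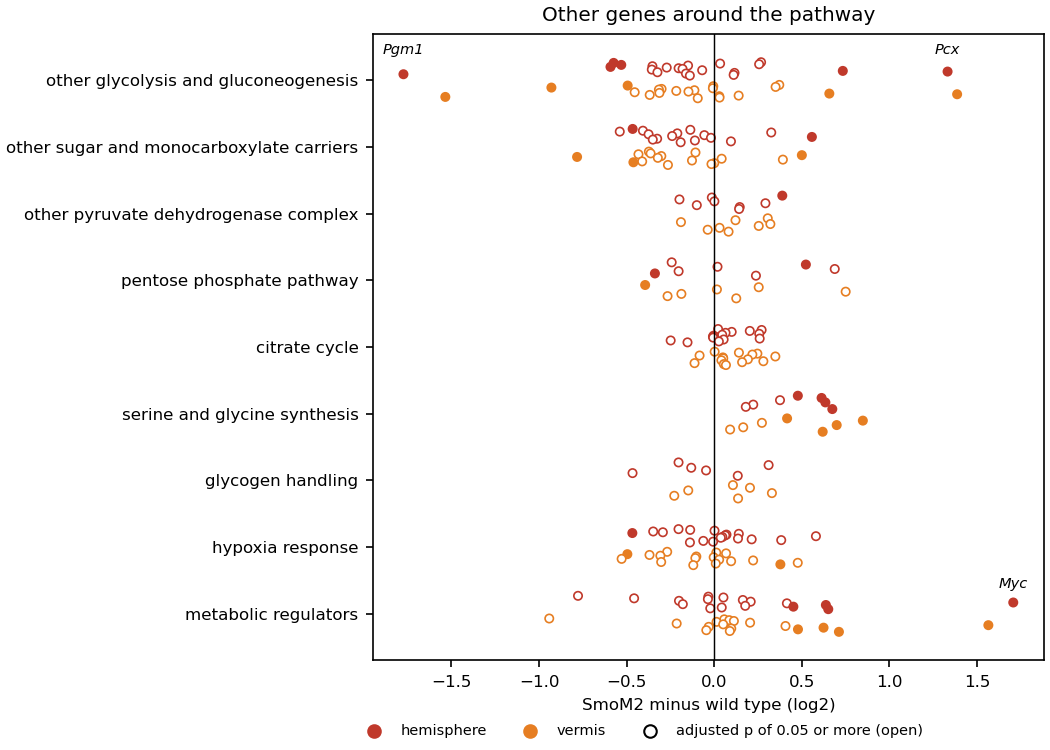
Difference of SmoM2 minus wild type (log2, horizontal axis) for the genes of 9 lists around the pathway, with 1 point per gene and region. Filled points passed at an adjusted p under 0.05. Pgm1 at -1.77 and Pcx at 1.33 in the hemisphere lie at the 2 ends of the first list, and the citrate cycle genes are all open.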

How the data were processed

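Granule cell progenitors of 4 groups were measured on 12 Affymetrix Mouse Genome arrays, 3 per group. The deposited log2 values, 1 per probe set, were made by the authors with Partek and RMA, per the submitters' processing notes, with no version stated there. RMA subtracts background, equalises the arrays and gives no detection call, so low values are compressed. The table held 45101 probe sets, 64 of them controls. By the platform annotation 34958 had 1 gene symbol, 932 several and 9211 none. Each of 18194 genes was represented by its brightest probe set by mean level, so Gapdh, whose 3 sets are array controls, has no value where controls are left out.

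The values were not normalized again. Groups came from the sample titles. A model with a mean per group was fitted with limma 3.58.1 in R 4.3.3 (lmFit, eBayes; 8 residual degrees of freedom per gene) and 5 contrasts were tested, two-sided, with Benjamini-Hochberg adjustment over all genes. Nothing in the sources says whether arrays of both regions came from the same mice, but same-numbered hemisphere and vermis arrays of a genotype deviated together from their group means (r = 0.174, 0.192 and 0.174 in SmoM2, 0.462, 0.186 and 0.457 in wild type). The replicate number was therefore also tried as a block, and as a block within each genotype. Promoter windows came from RefSeq. The method was tested on simulated data with few changed genes and independent noise, so same-numbered arrays did not deviate together there. Of 2-fold changes it recovered 86.6% to 94.0% between 2 groups, and 64.2% for the difference between the SmoM2 effects. Of 1.5-fold changes it recovered 61.2% to 62.7% and 29.9%. Smaller differences between the SmoM2 effects could therefore be missed. The members, the gene lists and the alternatives were chosen with earlier results of these data known. All 34 members are named. Array values are given for members that passed in any contrast and for the 8 others with the highest mean. Up to 4 genes of each further list are named. The 5 granule lineage markers that passed, and Phgdh, are exceptions, named after their values were seen. With 3 arrays per group the number of arrays limits the precision.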

Additional observations from a re-analysis of the deposited data

How the results depend on the processing

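Over 150 member results in 5 comparisons and up to 22 settings, 12 of 27 calls were kept in every setting run and 0 called values changed sign. Those were Hk2, Tpi1 and Pdk4 in both regions, Ldhb and Tigar in the hemisphere, and Pfkm, Aldoa, Pgam1 and Slc16a1 in the vermis. Of 123 values that did not pass, 55 changed sign in some setting. The hemisphere count of 15 ran from 7 to 16 with 1 array left out and was 9 with only the 2 groups compared in the fit. The vermis count of 12 ran from 7 to 14. For hemisphere against vermis in wild type, 2 members passed in place of 0 with the replicate number as a random block within genotype, and 0 with a fixed block. With the replicate number as a block over all arrays 15 and 14 members passed in hemisphere and vermis, and no count of region differences moved from 0. Renewed quantile normalization gave 6 members higher and 10 lower in the hemisphere, with all genes split into 1076 higher and 1538 lower, against 1387 and 1307 as deposited. In the vermis it gave 3 and 8 members, and 1104 and 1654 genes. Centring arrays on their medians gave 7 and 7 hemisphere members and 4 and 8 vermis members. The cause of these shifts was not tested. Low signal over background limits Slc16a3 and Eno2.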
